A study of Mus musculus with 4 samples.

Results

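The 54 genes described here encode homeodomain transcription factors outside the Hox clusters, and they were followed through the CpG methylation of adult mouse liver. They were chosen by name as the Lhx family (8 genes), the Nkx family (13), the Irx family (6), the Six-family (5), the Dlx family (6) and 16 further genes named Isl, Lmx, Msx, Pitx, Otx, En, Gbx and Emx. All 54 were found among 26180 mouse genes with curated RefSeq transcripts. Their bodies, plus 3000 bp on each side, held 8367 of the 1276684 cytosines measured in every mouse.

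A homeodomain is a DNA-binding fold, and genes that carry it set up the body plan, the nervous system, the limbs and many organs in the embryo. Most of these genes have starts that lie in long stretches rich in CpG dinucleotides, the sites where mammalian DNA is methylated. In differentiated cells that do not use them, such genes are commonly held silent by Polycomb proteins, and their CpG-rich DNA is known to stay largely free of methylation, whereas the bodies of most active genes are methylated.

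Methylation was measured by enhanced reduced representation bisulfite sequencing (ERRBS) in whole livers of 4 male mice aged 6 to 8 weeks on a normal diet. The mice labelled Mixed-1 and Mixed-2 had a mixed strain background that was not defined further, though C57BL/6J was part of it, and B6-1 and B6-2 were C57BL/6 mice. The strains were kept at different institutions, which means that the strain and the place of housing cannot be told apart, and each mouse was 1 replicate. Values for single mice are given below in a fixed order, Mixed-1 and Mixed-2 first and then the B6 mice by number. The labels name digestion with MspI, which cuts at CCGG, while the study's general account of ERRBS pairs it with a second enzyme, TaqαI. Short fragments are read after bisulfite treatment, which gives for each cytosine the percentage of reads in which it was methylated (or hydroxymethylated, which bisulfite does not separate). In whole tissue a level of this kind is the share of all molecules, and a change in the mix of cells and a change within cells cannot be told apart.

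Mean coverage ran from 44.2 reads per cytosine in Mixed-1 to 63.7 in B6-1, every cytosine used had at least 10 reads in each mouse, and intervals below cover counting error only. As a check of the tissue, promoters of cell type markers were read. Of 10 hepatocyte genes, Alb and Hnf4a among them, 4 had measured promoter cytosines, with a median of 14.7% and 2 of the 4 below 20%. Of 10 blood cell genes 5 had them, with a median of 76.2%, and of 10 brain genes 8 had them, with a median of 1.99%. Low promoter methylation was thus found in markers of another tissue as well as in some of the liver's own.

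A pair of sequences from Lhx8, a LIM-homeodomain factor of forebrain cholinergic neurons and of tooth and germ cell development, shows what was measured, because a methylated and an unmethylated stretch lie inside 1 gene body. The gene is on the reverse strand of GRCm38 (the mm10 build), the sequences follow it, and capitals mark the CpGs measured in all 4 mice. The first is intronic (chr3:154324695-154324766), and the second runs through intron and coding exon (chr3:154328390-154328570).
Lhx8 intron: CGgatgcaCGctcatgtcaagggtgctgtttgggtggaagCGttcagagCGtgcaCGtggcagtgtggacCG
Lhx8 nearer the start: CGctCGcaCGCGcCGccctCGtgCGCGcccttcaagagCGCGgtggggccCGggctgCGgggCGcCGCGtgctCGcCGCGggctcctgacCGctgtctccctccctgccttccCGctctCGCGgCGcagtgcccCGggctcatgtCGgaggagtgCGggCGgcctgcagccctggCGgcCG

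The intronic stretch, with 6 CpGs in 72 bases, was at 81.6%, 77.6%, 72.8% and 75.5% in the 4 mice. The stretch nearer the start, with 29 CpGs in 181 bases, was at 1.04%, 1.17%, 1.20% and 1.20%. No mouse came near the other state in either stretch. This pair was picked after its values were seen, and it illustrates the extremes rather than the typical gene.

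Around their starts the 54 genes were close to free of methylation in every mouse. The promoter, taken as 1000 bp on each side of any curated transcription start, held 4236 common cytosines, and their mean was 2.05%, 2.05%, 1.93% and 2.00% in the 4 mice. Promoters of all other genes, with 704132 cytosines, averaged 2.76% ± 0.0371 (SD, n = 4), so the 54 genes were 0.750 points lower, a difference with the same sign in all 4 mice (two-sided exact sign-flip permutation test, p = 0.125, the smallest that 4 mice can give). The mean of gene means kept this sign, and the medians of genes did not. Over the 52 members with at least 10 promoter cytosines the median gene was at 1.72%, while the median of 13392 other genes was lower, at 0.258%.

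Methylation inside the genes set them apart far more than methylation of promoters. In gene bodies outside promoters, 2996 cytosines averaged 8.23%, 8.09%, 7.76% and 8.03%. Bodies of other genes averaged 61.0%, 61.5%, 60.8% and 61.0% over 325677 cytosines, which was higher by a margin much larger than the spread between mice. The difference was -53.1 points (exact sign-flip permutation test over 4 mice, p = 0.125), and it had the same sign under every alternative tried. Bodies of the homeodomain genes can hold cytosines that lie in promoters of other genes, and without these the difference was -53.0 points.

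The DNA beside the genes was low as well. Within 3000 bp of the gene ends and outside promoters, 1135 cytosines averaged 6.96%, 6.71%, 6.34% and 6.71%, against 40.1% ± 0.222 (SD, n = 4) beside other genes, a difference of -33.4 points (exact sign-flip permutation test, p = 0.125). The difference was much smaller where CpGs were dense. At 15 or more CpGs within 100 bp these flanks were at 2.43% ± 0.192, against 3.46% ± 0.0361 beside other genes. That class held 41.3% of their flank cytosines and 26.5% of those beside other genes. At 0 to 4 CpGs the means were 31.7% ± 1.27 and 70.7% ± 0.666. Upstream flanks were at 6.18% ± 0.309 and downstream flanks at 7.16% ± 0.208 (SD, n = 4). The gene medians lay closer together than the means over cytosines, at 4.23% over 29 members and 5.61% over 3328 other genes. Values of single genes, however, also count flank cytosines that lie in the promoter or body of a neighbouring gene. The mean of other genes leaves these out, so it and the median rest on unlike cytosines. The mean of the homeodomain genes leaves them out only where the neighbour is another of these homeodomain genes. With promoters of other genes left out as well, the difference of means was -32.5 points. Leaving out bodies of other genes was not tested. Of the other genes, counted singly with cytosines in neighbouring genes included, 66.7% had a flank below 20% and 22.0% had one above 50%.

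Within the 54 genes the body exceeded the promoter by 6.02 points and the flank exceeded it by 4.67 points, each in all 4 mice (exact sign-flip permutation test, p = 0.125 for both, and 0.125 after Benjamini-Hochberg adjustment over the pair). By single cytosines, 99.2% of promoter sites, 90.5% of body sites and 92.1% of flank sites of the 54 genes were hypomethylated, that is below 20%. In bodies of other genes 26.0% were below 20% and 50.0% were hypermethylated, above 80%, while only 2.40% of body sites of the 54 genes were above 80%. Most of these genes were therefore unmethylated across their measured length, and a minority carried methylated stretches, as the plot of genes by region shows.

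**Figure D1:**
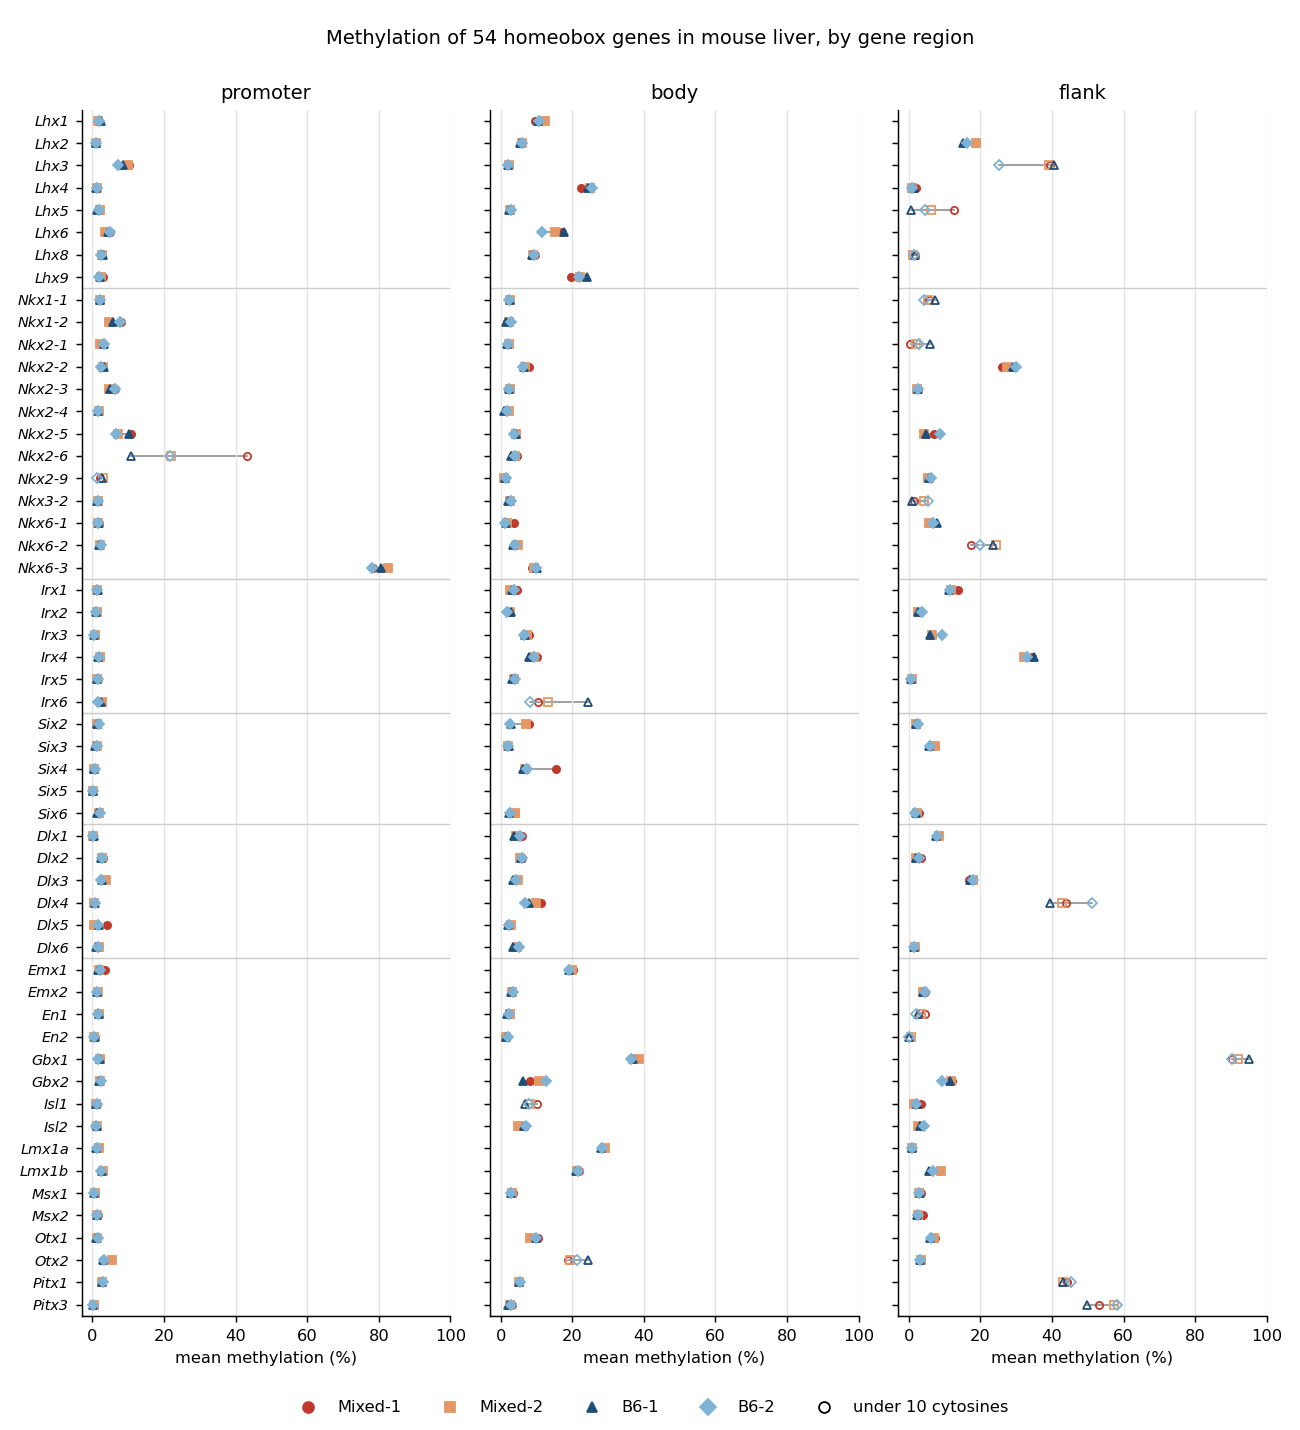
Mean methylation (%) of the promoter, body and flank of each of the 54 genes, one marker per mouse, with a grey line from the lowest to the highest mouse and open markers where under 10 cytosines were measured. Nearly all promoters sit near 0, with Nkx6-3 near 80%, and bodies reach up to 37.2% for Gbx1.

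Coverage by the assay differed between regions. All 54 genes had promoter cytosines, and only Nkx2-6 (2 cytosines) and Nkx2-9 (5) had fewer than 10. Body cytosines were present in 52 genes, with at least 10 in 49, and none were measured in Msx2 and Six5. Flanks were measured in 42 genes and with at least 10 cytosines in 29, so statements on flanks rest on fewer genes than those on promoters. Promoter sequences of 300 bases, from 250 before to 50 after a start (RefSeq, GRCm38.p6), were at hand for 40 of the 54 genes in 48 windows. They held a median of 20.5 CpGs, against 7 over all 32851 windows, and the MspI site CCGG lay in 89.6% of them against 52.8% of all windows.

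By means over cytosines, the families were ranked differently in promoters, bodies and flanks. The SDs, overlaps and tests between families are over mice, which share the same genes. They leave out the spread among the genes of a family. Six-family promoters were the lowest, with 0.878%, 0.974%, 0.827% and 1.18% over 435 cytosines. Irx promoters followed at 1.28% ± 0.0865, then the 16 further genes at 1.65% ± 0.0914, Dlx at 1.85% ± 0.137 and Lhx at 2.22% ± 0.0496 (SD, n = 4). Nkx promoters were the highest at 3.46% ± 0.0793 (SD, n = 4), but this rank rested on Nkx6-3. Without it the family stood at 2.37%, 2.11%, 2.21% and 2.28%, which overlapped the Lhx promoters. With Nkx6-3 included, the values of neighbouring families in this order did not overlap between mice except for the further genes and Dlx, where the highest mouse of the former (1.77%) lay above the lowest of the latter (1.71%). By gene medians, the further genes at 1.35% came before Irx at 1.40%.

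In bodies the Nkx family was the lowest. Its 680 body cytosines averaged 3.62%, 3.65%, 3.30% and 3.46%, although its promoters, with Nkx6-3 included, were the highest. Irx bodies were at 5.12% ± 0.338, Dlx bodies at 5.15% ± 0.407 and Six-family bodies at 5.19% ± 1.93 (SD, n = 4), and these 3 families could not be ranked because their mice overlapped. Lhx bodies were higher at 8.84% ± 0.198, and the 16 further genes were the highest at 12.7% ± 0.241 (SD, n = 4). The last value came largely from Lmx1a and Lmx1b, whose 326 body cytosines were at 23.4% ± 0.351, while the remaining 619 were at 7.11% ± 0.332. By gene medians Lhx bodies were instead the highest, at 9.93% over 8 genes, with the further genes at 5.84% over 13.

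In flanks the Six-family genes were again the lowest at 3.30% ± 0.430, and the other families lay between 6.68% for Dlx and 8.50% for Nkx. By gene medians the Six-family stayed the lowest at 2.21% over 3 genes, but the further genes were at 3.25% over 10. Each family was set against the remaining members in 18 comparisons, and 16 of these reached the smallest exact sign-flip permutation p of 0.125 (0.141 after adjustment over the 18), with the same sign in all 4 mice. The largest differences were 6.85 points for bodies of the 16 further genes, -5.84 points for Nkx bodies and -4.21 points for Six-family flanks. Several smaller family differences changed sign with the definition of the promoter or the weighing of genes, chiefly those of Lhx and Dlx promoters and of Lhx, Nkx and Dlx flanks. The exceptions to a p of 0.125 were Lhx flanks, at 0.711 points (p = 0.25), and Dlx flanks, at -0.00192 points (p = 1, exact sign-flip permutation test).

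**Figure D2:**
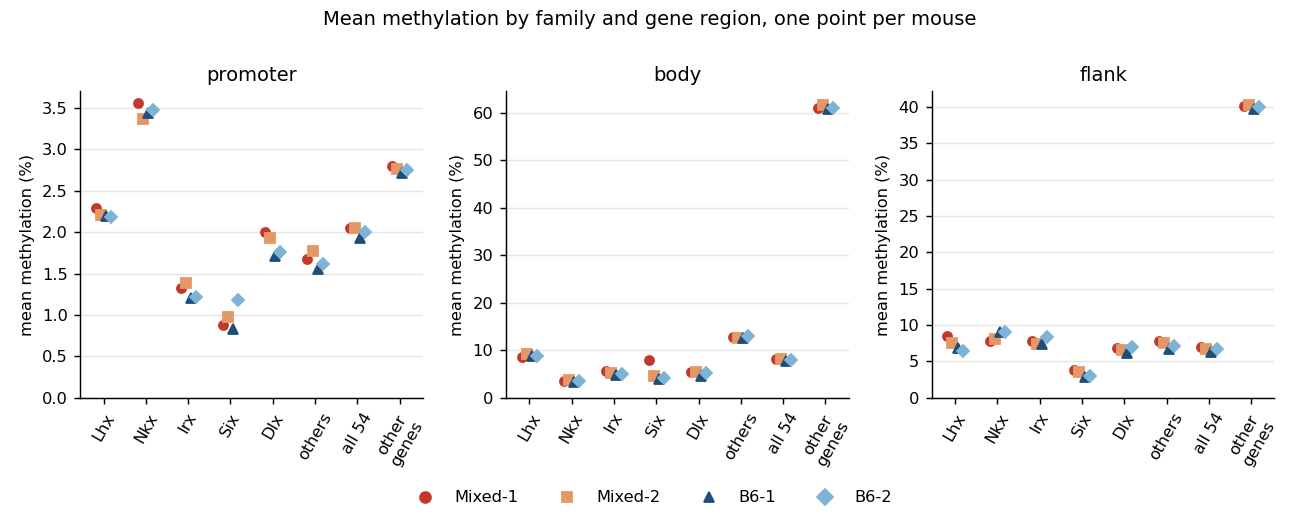
Mean methylation (%) of promoter, body and flank cytosines for each family, for all 54 genes and for all other genes, with one marker per mouse and a separate scale in each panel. In the body panel other genes lie near 61% and the highest family mean is 12.7%.

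Among promoters, the lowest of the 52 genes were Six5 at 0.121% ± 0.0462, Dlx1 at 0.205% ± 0.198 and Pitx3 at 0.326% ± 0.179 (SD, n = 4). Six5 lies beside the myotonic dystrophy kinase gene, Dlx1 acts in forebrain interneurons and Pitx3 in midbrain dopamine neurons and the lens. The highest after Nkx6-3 were Lhx3, a factor of the pituitary and motor neurons, at 9.01% ± 1.43, and Nkx2-5, the cardiac factor, at 8.62% ± 2.17 (SD, n = 4), whose ranges over mice overlapped. Of the 52 genes, 51 were below 20% (98.1%), against 95.3% of 13392 other genes.

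Only 30 of the 4236 promoter cytosines reached 20%, or 0.708%, compared with 3.35% in promoters of other genes. Nkx6-3 gave 14 of them, and without it the share was 0.379%. The other 16 fell in 8 genes, with 4 in Lhx3, 3 in Gbx1, 2 each in Dlx2, Nkx2-5 and Nkx2-6, and 1 each in Irx4, Nkx1-2 and Nkx2-3. Apart from those of Nkx6-3, the highest was a cytosine 852 bp upstream of Nkx2-3, a factor of gut and spleen development, at chr19:43611473 on the reverse strand, with 67.4%, 53.8%, 63.8% and 52.7% in the 4 mice. The 5 highest all lay in the first coding exon of Nkx6-3 between 435 and 679 bp after its start, and the top one read 87.3%, 91.6%, 96.3% and 97.7%.

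Nkx6-3, a factor of the stomach epithelium, stood apart from its relatives Nkx6-1, a factor of pancreatic beta cells, and Nkx6-2, a factor of oligodendrocytes. Its 14 promoter cytosines averaged 78.2%, 82.7%, 80.5% and 78.2%. The 196 promoter cytosines of Nkx6-1 averaged 1.66% ± 0.174 and the 120 of Nkx6-2 averaged 2.06% ± 0.285 (SD, n = 4). All 14 cytosines of Nkx6-3 lay downstream of the start, so the DNA before it was not measured. Its intronic stretch about 2290 bp after the start averaged an intermediate 51.1% ± 5.75. Within it the cytosine 2338 bp after the start was at 2.69%, and the others lay between 55.6% and 71.6%. This stretch was followed by the unmethylated last exon, which with its edges held 46 of the 54 body cytosines at 0.946% ± 0.272. A level for the whole body, 9.58% ± 0.708, thus averaged over opposite states.

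**Figure D3:**
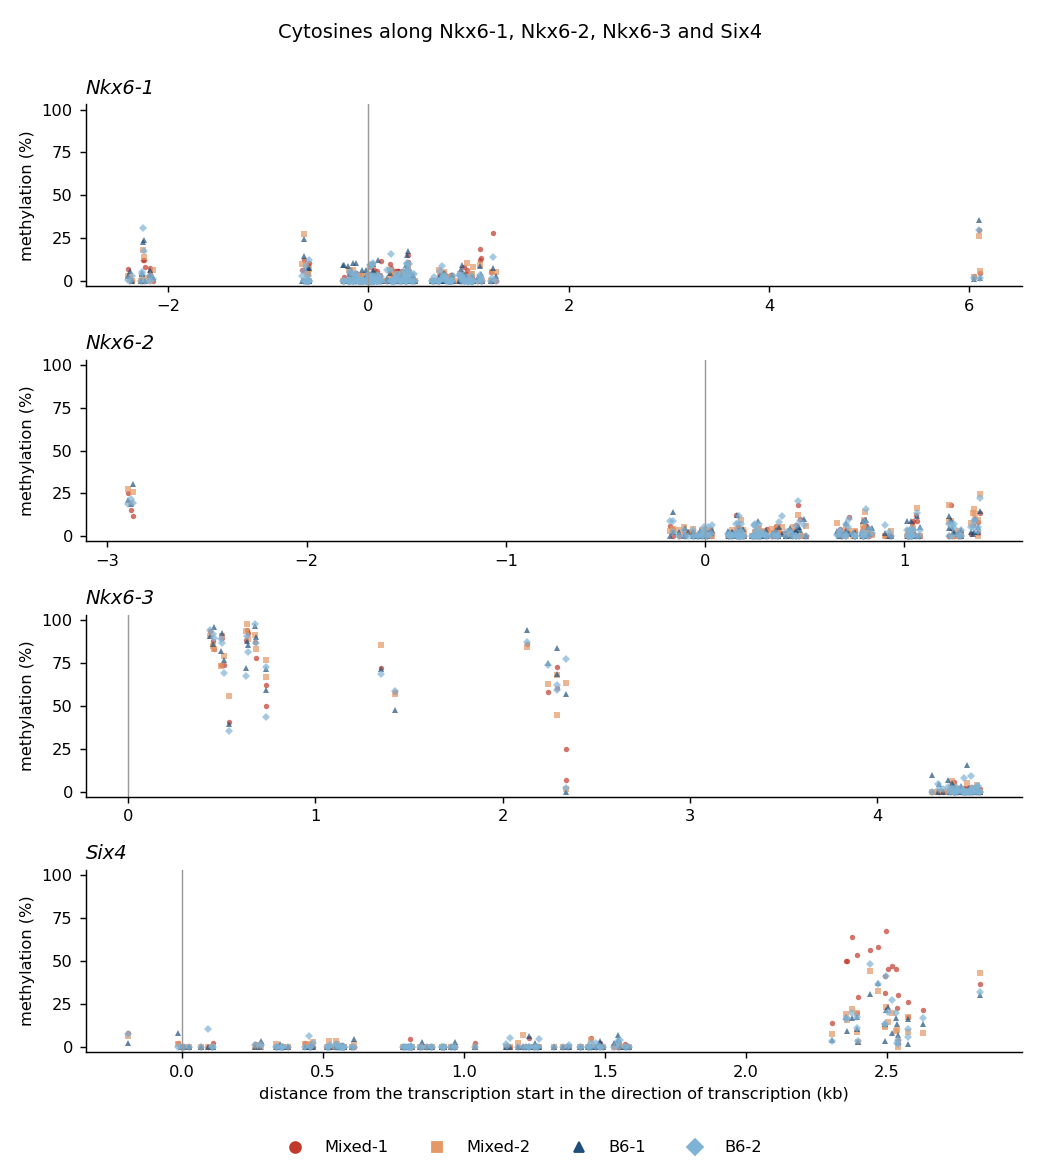
Methylation (%) of each common cytosine along Nkx6-1, Nkx6-2, Nkx6-3 and Six4, plotted against the distance (kb) from the outermost transcription start, with one marker per mouse. Nkx6-3 is methylated near its start and unmethylated at its end, and Six4 has a group of cytosines downstream of the start where Mixed-1 lies above the other mice.

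Of the 49 genes with at least 10 body cytosines, 44 had a body mean below 20%, or 89.8%, against 12.4% of 8075 other genes, and none exceeded 50%, against 75.6% of other genes. The lowest bodies were those of Nkx2-9 at 1.15% ± 0.178, En2 at 1.56% ± 0.340 and Nkx2-4 at 1.72% ± 0.512 (SD, n = 4). The highest were those of Gbx1, a spinal cord factor, at 37.1%, 38.6%, 36.8% and 36.4%, and of Lmx1a, a factor of midbrain dopamine neurons, at 28.6%, 29.0%, 28.1% and 28.2%. Lhx4, a pituitary factor, followed at 24.4% ± 1.29 (SD, n = 4). In these genes the mice differed by far less than the genes did from the median body of 4.13%.

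Within the families, Lhx bodies ran from 2.19% in Lhx3 to 24.4% in Lhx4, and Lhx3 had thus the highest promoter and the lowest body of its family. Nkx bodies ran from 1.15% in Nkx2-9 to 9.58% in Nkx6-3, and Irx bodies from 2.45% in Irx2 to 9.16% in Irx4. Six-family bodies ran from 2.20% in Six3, an eye and forebrain factor, to 8.94% in Six4, and Dlx bodies from 2.27% in Dlx5 to 8.97% in Dlx4. Among the further genes the range was widest, from 1.56% in En2 to 37.2% in Gbx1.

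The methylated body cytosines lay mostly far from the starts. In Lmx1a (chr1:167689558-167848733) the 39 body cytosines within 5000 bp of the start averaged 1.83% ± 0.283, and the 49 beyond it averaged 49.7% ± 0.846 (SD, n = 4). The same contrast held in Lhx4, with 1.78% ± 0.341 and 46.3% ± 2.30, in Lmx1b, with 4.55% ± 0.524 and 28.0% ± 0.468, and in Emx1, a cortical factor, with 2.17% ± 0.779 and 74.2% ± 0.446 over 7 far cytosines. Lhx8 had 1.21% ± 0.148 and 77.8% ± 3.30 over 9 far cytosines. The far part was also the higher one in Lhx1, with 4.89% ± 0.599 and 23.0% ± 3.79. Lhx2 had 2.84% ± 0.117 and 13.3% ± 0.882. Lhx9 had 5.41% ± 3.98 over 6 near cytosines and 26.9% ± 2.72. Nkx2-2 had 2.75% ± 0.813 and 26.7% ± 1.90 over 9 far cytosines. Some genes did not show this contrast. Pitx3 had all its 86 body cytosines beyond 5000 bp at 2.72% ± 0.433, Lhx5 had 105 there at 3.14% ± 0.218, and in Lhx6 the far part, at 13.2% ± 2.67, was lower than the near part, at 30.6% ± 3.78 over 6 cytosines.

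Of the 73 body cytosines above 80% on average, 22 were in Lmx1a, 20 in Lmx1b, 14 in Lhx4, 7 in Gbx1, 4 each in Emx1 and Lhx8 and 1 each in Lhx2 and Nkx6-3. No other of the 54 genes had one. By annotation, body cytosines in coding exons were at 4.40% ± 0.113 and those in introns at 11.1% ± 0.363 (SD, n = 4). The last coding exon was at 2.84%, 3.14%, 2.80% and 3.21% over 795 cytosines, and the earlier coding exons were at 6.37% ± 0.238 over 570.

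Gene bodies of these factors are richer in CpGs than most, so levels were also compared within classes of CpG density and of distance. Of their body cytosines 57.9% had 15 or more CpGs within 100 bp, against 19.0% of those in other genes. At that density the 54 genes were at 2.77%, 2.88%, 2.51% and 2.59% in the 4 mice, and other genes at 14.2% ± 0.127 (SD, n = 4). At 5 to 9 CpGs the means were 21.2% ± 0.474 and 74.4% ± 0.348, and at 0 to 4 CpGs they were 43.0% ± 0.883 and 76.4% ± 0.660 (SD, n = 4). The 54 genes were lower in every class of density and in each mouse. Density and distance could still differ within a class, above all in the open class of 15 or more, so density was not made equal.

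By distance, body cytosines of the 54 genes stayed at 4.03%, 4.29% and 3.71% from 1000 to 2000, from 2000 to 3000 and from 3000 to 5000 bp after a start. Other genes rose over the same bins from 22.2% through 43.4% to 52.4%. Between 5000 and 10000 bp the 54 genes were at 11.8% ± 0.316, and beyond 10000 bp at 30.7% ± 0.237, against 64.4% ± 0.289 and 72.6% ± 0.362 in other genes (SD, n = 4). With both limits together, within 5000 bp and at 15 or more CpGs, the means were 2.28% ± 0.124 and 6.99% ± 0.183, which was a smaller gap than in any other class of the near part.

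**Figure D4:**
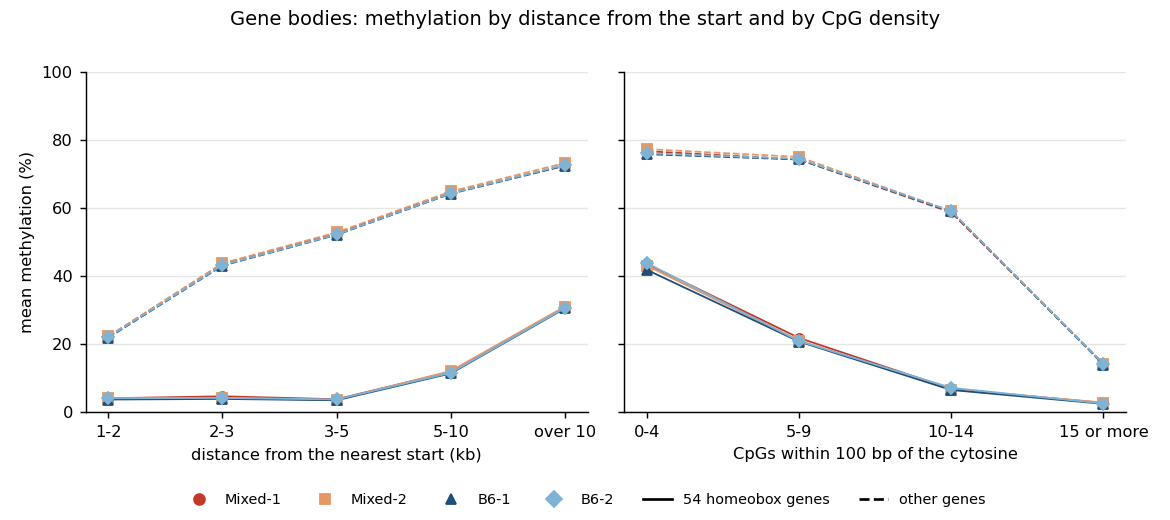
Mean methylation (%) of gene body cytosines by distance from the nearest start (left, in kb) and by the number of CpGs within 100 bp (right), with solid lines for the 54 genes, dashed lines for other genes and one marker shape per mouse. The lines of the 54 genes stay below those of other genes in every bin, and the 4 mice nearly coincide.

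To find where methylated stretches lay, common cytosines of the 54 genes were joined into blocks of at least 5 with gaps of up to 100 bp, which gave 335 blocks. Of these, 307 averaged below 20%, 21 were between 20% and 80%, and 7 were above 80%. In promoters 117 of 119 blocks were below 20% (98.3%, against 92.5% in other genes), and in bodies 127 of 146 were (87.0%, against 17.1%). The 2 promoter blocks above 20% belonged to Nkx6-3 and Lhx3, whose intronic block 686 bp after a start was at 32.9%, 36.6%, 31.0% and 26.0%. Low methylation was therefore the state of nearly all blocks rather than an average over mixed ones.

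The 7 hypermethylated blocks were 2 in Lmx1a introns (82.8% and 87.4%), 1 at the 3′ end of Lmx1b (81.1%), 1 coding exon (80.1%) and 1 intron (88.4%) of Lhx4, and 1 intron (94.3%) and the downstream flank (91.9%) of Gbx1. Lmx1a also held an unmethylated intronic block 113660 bp after its start, at 0.955% ± 0.610 over 16 cytosines, between these 2 methylated blocks. Intermediate levels that were alike in all mice were found in Lmx1b introns, at 58.7% ± 1.25 for one block and 49.6% ± 1.68 for another. Flank blocks at intermediate levels stood beside Irx4 (53.0% ± 2.34), Pitx3 (54.6% ± 3.90) and Nkx2-2 (66.5% ± 5.24, SD, n = 4).

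One block stood apart in a single mouse. It lies in an intron of Six4, a factor of muscle and kidney development (chr12:73110796-73111119, reverse strand), and 300 of its bases are printed because the sequence shows how its CpGs are spaced. It follows the gene's strand from chr12:73111095 down to chr12:73110796, and capitals again mark measured CpGs.
Six4 intron: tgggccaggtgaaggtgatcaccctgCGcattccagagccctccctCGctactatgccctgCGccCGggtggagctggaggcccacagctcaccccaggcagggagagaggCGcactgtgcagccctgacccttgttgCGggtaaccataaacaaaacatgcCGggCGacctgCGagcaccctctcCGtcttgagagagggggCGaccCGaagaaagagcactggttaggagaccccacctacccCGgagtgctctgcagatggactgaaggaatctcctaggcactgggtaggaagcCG

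The 21 cytosines of this block averaged 37.9%, 14.9%, 13.6% and 16.6% in the 4 mice. Mixed-1 was the highest mouse at 19 of the 21, with 22 to 70 reads per cytosine, and the difference was present on both strands, at 35.2% against a mean of 13.8% in the other mice on the forward strand and 40.2% against 16.1% on the reverse strand. The remaining 34 body cytosines of Six4 were at 1.55%, 1.69%, 1.83% and 1.55%, so the whole-body value of Mixed-1, 15.4% against 6.72%, 6.34% and 7.31%, came from this block. It was the only one of the 335 blocks with 1 mouse 20 points or more from the rest, and 58 of 41221 blocks in other genes (0.141%) were of this kind. Without Six4 the bodies of its family were at 3.74%, 3.48%, 2.52% and 2.26%, and Mixed-1 no longer stood out.

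The unmethylated stretch around each start was measured as the distance out to the nearest common cytosine at 50% or more on each side, up to 50000 bp a side, in the 52 members and 13555 other genes whose promoters had at least 5 cytosines below 20% on average. The median span was 36784, 37946, 40832 and 36503 bp in the 4 mice, and in other genes it was between 28620 and 28777 bp. The difference of medians was 9332 bp (exact sign-flip permutation test over 4 mice, p = 0.125), but it turned to -5647 bp when a cytosine at 20% already ended the span, so the direction depended on that limit. Spans also contain DNA without measured cytosines. The part of the span between the outermost cytosines measured within it had a median of 12918 bp in the 52 genes and 1504 bp in other genes, and it reached 10000 bp in 34 of 52 and in 23.8% respectively.

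The longest spans were those of Nkx2-4 (100000 bp, the limit), Six6 (80884 bp), Emx2 (77755 bp), Nkx3-2 (76140 bp) and Lhx2 (74589 bp). That of Nkx2-4 is weakly based, since its measured cytosines covered only 1551 bp of it, whereas those of Six6, an eye and pituitary factor, covered 28266 bp. The shortest were those of Otx1 (4683 bp), Dlx3 (4746 bp) and Pitx1 (10338 bp). The longest 4 had the same length in all mice, though the limit set their upstream side and, in Nkx2-4, both sides. Single cytosines could set a span. In Six2 it was 21967 bp in both mixed mice and 49441 bp in both B6 mice, and in the mixed mice it ended downstream at 1 cytosine, 3116 bp after the start, with 10 and 14 reads.

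Among flanks with at least 10 cytosines, the lowest were those of Irx5 at 0.731% ± 0.127, Lmx1a at 0.938% ± 0.0656 and Lhx4 at 1.29% ± 0.517. The highest were Irx4 at 33.6% ± 1.24, Nkx2-2, a factor of the ventral neural tube and pancreatic islets, at 28.0% ± 1.71 and Dlx3, a factor of skin and placenta, at 17.4% ± 0.615 (SD, n = 4). Lmx1a and Lhx4 thus combined some of the lowest flanks with some of the highest bodies. Of the 29 flanks 27 were below 20% (93.1%, against 66.7% of 3328 other genes, with cytosines in neighbouring genes included).

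Hox and Pax genes, developmental genes like the 54, were read in the same way. Hox genes had a median promoter of 2.79% over 32 genes and a median body of 6.22% over 25, beside the 1.72% and 4.13% of the 54 genes. Pax genes had 2.01% over 6 promoters and a higher 18.1% over 8 bodies. These lists were chosen with results known, and the differences between them were not tested.

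The study's labels hold 1 contrast, mixed against C57BL/6 mice, and the means of the 54 genes differed little by it. Promoters were at 2.05% ± 0.00391 in the mixed mice and 1.96% ± 0.0478 in the B6 mice (SD, n = 2 each), a difference of 0.0864 points. Bodies differed by 0.263 points and flanks by 0.306 points, all higher in the mixed mice. None could pass a threshold of 0.05, because 2 against 2 mice cannot give an exact two-sided permutation p under 0.333. The p-values were 0.333 for promoters, 0.333 for bodies and 0.667 for flanks (0.5, 0.5 and 0.667 after adjustment over the 3), and when all sites of each mouse were used in place of common ones the differences became -0.155 points for bodies and -0.220 points for flanks.

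Gene by gene, mixed and B6 mice did not overlap in a minority of promoters and bodies and in most flanks. The mixed mice were higher in 12 of 52 promoters (23.1%, against 17.7% over all genes), in 16 of 49 bodies (32.7%, against 24.1%) and in 12 of 29 flanks (41.4%, against 20.2%). They were lower in 4 of 52 promoters (7.69%, against 17.9%), 2 of 49 bodies (4.08%, against 13.1%) and 5 of 29 flanks (17.2%, against 15.5%). Coverage was lower in the mixed mice as well, with a median ratio of mixed to B6 coverage of 0.731 over the cytosines of the 54 genes. Where that ratio was below 0.333, at 873 cytosines, the mixed mice were higher by 0.645 points. Where it was above 1, at 1520 cytosines, the difference was -0.0165 points. Over all common cytosines the same bins gave 0.408 and 0.136 points, so a decline was not particular to the 54 genes. The part of coverage in the strain difference was not tested.

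A logistic model of methylated and unmethylated reads at each cytosine, with overdispersion moderated over all sites by limma, called none of the 8367 cytosines of the 54 genes at an adjusted p under 0.01 and a difference of 25 points. It called 57 of 1276684 cytosines in all, or 0.00446%. At an unadjusted p under 0.05 and 25 points, 12 cytosines of the 54 genes were left (0.143%, against 0.29% of all). With the reads of each strain summed, Fisher's exact test, which takes no account of variation among mice, called 5 (0.0598%, against 0.126%), and limma on log2 ratios called 0. The share of cytosines that differed was no higher than the background by the 3 rules for which all cytosines were counted.

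The 12 cytosines lay in 10 genes, and 8 of them were higher in the mixed mice. The one with the lowest p was in the 3′ untranslated exon of Six2, a kidney progenitor factor, at chr17:85685138 on the reverse strand. It read 60% (exact 95% interval 26.2% to 87.8%, 10 reads) in Mixed-1, 78.6% (49.2% to 95.3%, 14 reads) in Mixed-2, 5.66% (2.11% to 11.9%, 106 reads) in B6-1 and 4.505% (1.48% to 10.2%, 111 reads) in B6-2. The strains did not overlap, the difference was 64.2 points and the adjusted p of the moderated logistic model was 0.0780. The coverage of the mixed mice here was 0.111 times that of the B6 mice, and 7 of the 8 cytosines that were higher in mixed mice had a ratio under 0.5.

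Irx4, a factor of the heart ventricle, held the next, in a coding exon at chr13:73265547 on the reverse strand. It was at 69.2% and 60% in Mixed-1 and Mixed-2 on 13 and 10 reads, and at 18.2% and 5.77% in B6-1 and B6-2 on 55 and 52 reads. On the forward strand of the same CpG, with 39 to 83 reads, the values were 5.13%, 13.3%, 20.6% and 13.5%, so the strain difference was not present there. The bases around it are printed so that this CpG, in capitals, can be placed in chr13:73265517-73265577 (forward strand), beside the corresponding stretch of Lhx4 (chr1:155717634-155717694, reverse strand).
Irx4 exon: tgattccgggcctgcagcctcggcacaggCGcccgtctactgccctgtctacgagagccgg
Lhx4 intron: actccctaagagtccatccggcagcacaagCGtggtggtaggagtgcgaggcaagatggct

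At the Lhx4 cytosine, chr1:155717664 on the reverse strand, 1 mouse rather than a strain stood apart. Mixed-1 read 2.70% (exact 95% interval 0.0684% to 14.2%, 37 reads), while Mixed-2 read 90.6%, B6-1 89.6% and B6-2 97.4%. Such values count reads with C against reads with T. Whether the DNA sequence of the mixed mice itself differs at this or any other of the 12 cytosines was not tested. Without this cytosine the Lhx4 body was at 22.8%, 24.1%, 23.4% and 24.6%. At the Lhx2 cytosine the difference of 30.1 points was again on 1 strand, and the opposite strand of that CpG read 7.41%, 13.6%, 4.35% and 18.5%, with no separation of the strains. The strains also overlapped on the opposite strand at Dlx4 chr11:95142674 (16.1%, 12.5%, 19.1% and 12.2%) and Lmx1b chr2:33629966 (51.4%, 37.5%, 40.5% and 41.9%). At Nkx2-2 chr2:147175504 they overlapped there too (64.3%, 90.5%, 89.5% and 95.3%). The remaining cytosines had no opposite strand measured in all mice.

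**Figure D5:**
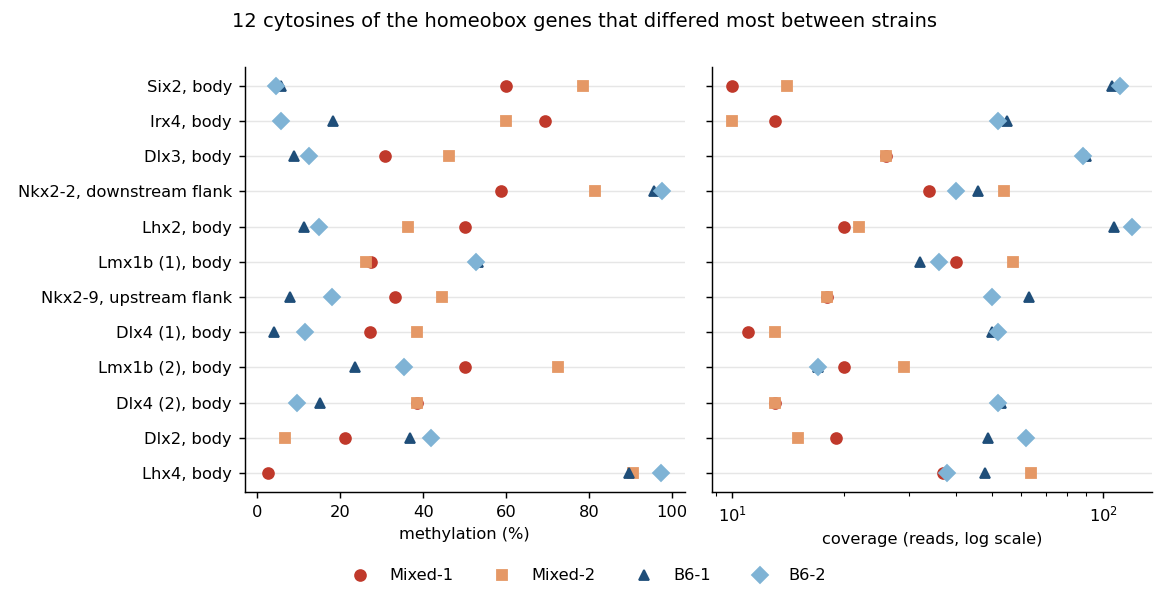
Methylation (%) and coverage (reads, log scale) of the 12 cytosines of the 54 genes with an unadjusted p under 0.05 and a difference of 25 points, one marker per mouse, ordered by p. The mixed mice have fewer reads at most of the cytosines where they read higher, and at the Lhx4 cytosine Mixed-1 alone is low.

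Among gene regions with at least 10 cytosines, those with the largest strain difference in site means were Six2 body, Six4 body, Dlx4 body, Lhx2 flank and Nkx2-2 flank. Six2 body was at 7.97% and 6.99% in the mixed mice and 2.99% and 2.48% in the B6 mice, a difference of 4.75 points that fell to 1.78 points without the 1 cytosine described above. Dlx4 body differed by 3.23 points, and by 0.988 points without its 2 cytosines among the 12. Lhx2 flank was at 18.8% and 18.7% against 15.2% and 16.3%, and Nkx2-2 flank at 26.0% and 27.3% against 29.0% and 29.8%. The Six2 and Dlx4 differences thus shrank without 1 or 2 cytosines, but these were picked for their strain difference, so some decrease was built in. Without its cytosine the Six2 body was still higher in both mixed mice, at 5.37% and 3.41% against 2.86% and 2.38%. In Dlx4 the strains then overlapped, and the Six4 difference came from 1 mouse.

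On reads summed by gene and region, the logistic model called 1 of 141 regions of the 54 genes at an adjusted p under 0.05 and 5 points (0.709%, against 1.02% of 31476 regions). This was the Nkx2-2 flank, with 23.7% and 27.3% of pooled reads in the mixed mice and 16.2% and 16.7% in the B6 mice (adjusted p = 0.0349, limma-moderated logistic model). Its site means gave the opposite sign, -2.76 points against 9.01 points for pooled reads, so the call depended on how reads were spread over its 25 cytosines. With the replicate number as a block its adjusted p was 0.376, and 0 regions of the 54 genes were called. The count was also 0 when either B6 mouse was left out, and 1 when either mixed mouse was. Lmx1b body had a lower adjusted p of 0.0207 but a difference of 3.27 points, under the limit of 5.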

How the data were processed

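Liver DNA of 4 male mice was profiled by ERRBS (MspI digestion per the labels, size selection, bisulfite treatment). The study's methods name BSMAP as the aligner, and the submitters' processing notes list Bismark, SAMtools and the build mm10. The authors deposited, for each mouse and each CpG cytosine on each strand, the coverage as a raw count of reads with a minimum of 10, and how many of them, as a percent, read C and how many T. Groups came from the strain label.

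Cytosines present in all 4 mice were placed on GRCm38 with its curated RefSeq transcripts, and promoter took precedence over body and body over flank. For values of single genes this precedence was applied within the gene only. Means of the homeodomain genes applied it among those genes, and means of other genes applied it among all other genes. Body and flank means of the homeodomain genes can thus hold cytosines in promoters of other genes, and flank means also cytosines in their bodies. Leaving out these promoters gave differences of -53.0 points for bodies and -32.5 points for flanks. Leaving out the bodies was not tested. Levels are means of site percents. Reads methylated were the percent times the coverage. Coverage summed over the cytosines of a mouse ran from 60654199 to 99215153, in which a read counts once for each cytosine it covers, and the median coverage of common cytosines was 51. At 10 reads a single value has a wide interval, so single cytosines are given with their coverage. Levels were compared by exact sign-flip and exact permutation tests over mice, and strains by a quasi-binomial logistic model moderated with limma 3.58.1 (R 4.3.3, with data.table), Benjamini-Hochberg adjusted over all sites or regions. On simulated data the model recovered 140 of 200 cytosines shifted by 50 points and 181 of 200 gene regions shifted by 20 points, with 0 false calls; with the replicate block it recovered 0 and 19. Python 3.11.15, numpy 2.4.6, pandas 2.3.3, scipy 1.17.1 and matplotlib 3.10.9 were used.

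The 54 genes, the other lists and the tests were chosen with earlier results of these data known. Genes were named by rule: the 3 highest and 3 lowest with at least 10 cytosines per region, the extremes of each family's bodies, the 5 longest and 3 shortest spans, called genes and cytosines, the 5 largest strain differences and the 5 highest promoter cytosines. Other genes and blocks named were chosen after their values were seen. Mouse numbers pair nothing in the labels beyond the number itself. Over the 8367 cytosines, what each mouse deviated from its strain mean correlated at 0.00639 between mice of the same number, and with 2 mice per strain both pairs give the same value. Alternatives changed coverage, strands, promoter and flank definitions, weighing, thresholds, tests and the mice used. Some items are not reported here.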

Additional observations from a re-analysis of the deposited data

Results flagged for a closer look

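Dixon's ratio of gap to range was computed over all 4 mice for 23 values: the levels of the 54 genes and of each family by region, the median span, and the block with the largest gap between 1 mouse and the rest. It exceeded the 95% critical value for 1 of them, the Six4 intron block, at 0.876, with 37.9% in Mixed-1 and between 13.6% and 16.6% in the other mice. This block was picked out of 335 for its gap, and chance alone passes the critical value in about 1 in 20 sets, so this describes the block and is no test of it. The strains have 2 mice each, too few for the ratio within a strain.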

How the results depend on the processing

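The 3 differences from other genes and the 2 between regions kept their sign in all 68 values under alternatives. Of 235 family values 17 changed sign. Lhx promoters became -0.207 points with promoters of 2000 bp each side, -0.431 with 1 start per gene record and -0.693 with gene means; Dlx promoters became 0.137, 0.231, 0.0352 with pooled reads, and 0.112 without Nkx6-3. Lhx flanks became -1.85 at a coverage of 20, -0.188 without promoters of other genes and -4.97 with gene means; Nkx flanks became -4.74 with gene means, and flanks of the 16 further genes -0.230 without promoters of other genes. Dlx flanks became 0.262 without promoters of other genes, 0.0382 with pooled reads, and ran from -0.104 to 0.0493 points when 1 mouse was left out. The span difference ran from 8424 to 9838 bp without 1 mouse and was -5647 bp when ended at 20%. Bodies and flanks differed by -0.155 and -0.220 points between strains with all sites of each mouse. The cause of these changes was not tested, apart from the alternative's own construction.

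In a fit that used the replicate number as a block, the strain differences of promoters, bodies and flanks stayed at 0.0864, 0.263 and 0.306 points, and the counts of called cytosines and called gene regions of the 54 genes were 0 and 0. Few simulated shifts were recovered by the block model, so these counts carry little weight. Fisher's exact test called 5 cytosines and 4 regions, limma on log2 ratios 0 and 0, and without a minimum difference 0 and 2. Leaving out 1 mouse gave 0 cytosines in each case and between 0 and 1 regions, with 0 without either B6 mouse. The settings without Nkx6-3, without Lmx1a and Lmx1b, and with protein-coding genes only were chosen after seeing the data; under the second, bodies of the 16 further genes exceeded the other members by 1.25 points in place of 6.85.

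Depth limits single cytosines, and ERRBS covers only DNA near its restriction sites. Every strain comparison is limited to 2 mice per strain.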
